A study of Homo sapiens with 8 samples.

Results

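BAX, BAK1 and the BH3-only genes other than BCL2L11 were followed over time in CCRF-CEM-C7-14, a line of human acute lymphoblastic leukaemia of the T lineage in which glucocorticoids are known to cause death. It is a cloned line, so the replicates share a genotype. The members were all probe sets whose single platform gene symbol was BAX, BAK1, BID, BAD, BMF, BBC3, PMAIP1, HRK or BIK. This rule gave 18 of 54675 probe sets, for 8 of the 9 genes listed and of 19775 genes in all. BBC3, which encodes PUMA, had no probe set of its own symbol alone and was not analysed here. Total RNA was hybridised to 8 single-colour arrays. Untreated cells (0 h) gave 3 of them, and cells kept in 1 µM dexamethasone, a synthetic glucocorticoid, gave 3 at 2 h and 2 at 10 h. All groups had been moved to medium with charcoal-stripped serum beforehand, and no arrays of cells kept without hormone for 2 h or 10 h were used here, so hormone and time cannot be told apart. The labels name the replicates biological without saying what was separate between them, so the p-values rest on the spread among these arrays, which may be partly technical, and 2 to 3 arrays a time limit the precision.

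In the mitochondrial pathway of apoptosis, BAX and BAK (the product of BAK1) form the pores in the outer mitochondrial membrane through which cytochrome c leaves. BH3-only proteins set this off, either by activating BAX and BAK or by occupying the anti-apoptotic proteins BCL2, BCL-XL and MCL1 that hold them in check. Several are controlled after transcription: BID by cleavage, BAD by phosphorylation, BAX by its place in the cell. The arrays measured transcripts and none of these steps. In lymphoid leukaemia, BCL2L11, which encodes BIM, and BMF are the BH3-only genes best known to be raised by glucocorticoids.

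Values are log2 expression, where a difference of 1 is a 2-fold change, and the level of a probe set cannot be set against that of another. Probe sets of a gene share a target and are not replicates. The 27 Bacillus control probe sets, which match no human transcript, ran from 1.52 to 4.73, and a probe set with a mean above 4.73 over the 8 arrays is called above background. This held for 13 of the 18 member probe sets, in 7 genes, and for 52.4% of all probe sets. A marker gene was counted as above background if any of its probe sets was. This held for 8 of 9 measured genes for T cells, 3 of 4 for B cells, 1 of 4 for myeloid and 1 of 2 for erythroid. It held for 2 of 3 for natural killer and 4 of 5 for epithelial and stromal cells. By probe set the counts were 11 of 14 for T cells, 4 of 11 for B cells, 1 of 6 for myeloid and 3 of 6 for erythroid. For natural killer they were 4 of 13 and for epithelial and stromal cells 5 of 11. None of the marker probe sets of any of the 6 cell classes passed the test at either time. Array medians lay between 4.68 and 5.01, and 0 h replicate 2, 2 h replicate 3 and 10 h replicate 1 had the 3 lowest.

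No member transcript passed the test at either time. With limma, fitted over 54613 non-control probe sets with Benjamini-Hochberg adjustment, 0 of the 18 member probe sets passed an adjusted p below 0.05 at 2 h, at 10 h or between 2 h and 10 h. Over the array the same rule called 0.00916% of probe sets at 2 h, 0.251% at 10 h and 0.108% between 10 h and 2 h, so a count of 0 in 18 lay near the background. In bulk RNA, fewer cells that express a gene and less RNA per cell cannot be told apart. At an unadjusted p below 0.05 there were 0 members at 2 h, against 1.1% of all probe sets, 1 at 10 h, against 2.68%, and 0 for 10 h against 2 h, against 2.53%. The moderated F test over all times called 0 members and 0.192% of the array.

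The intervals bound the changes in signal that these arrays allow. At 2 h all 18 members had a 95% interval inside a 2-fold change in either direction, and at 10 h 17 did, with PMAIP1 204286_s_at the exception on the side of a fall. Such narrow intervals were common on the array, at 98.9% and 96.5% of all probe sets. The 18 include the 5 HRK probe sets, which were below background, so their intervals say little about the transcript. For the 13 above background, the log2 bounds ran from −0.54 to 0.77 at 2 h and from −1.01 to 0.88 at 10 h. The highest upper bound of any member was 1.71-fold at 2 h and 1.85-fold at 10 h. By contrast, the same cells had raised BCL2L11 by 10 h: 6 of its 7 probe sets passed, and the probe set with the largest change, 225606_at, averaged 7.59 ± 0.10 (SD, n = 3) untreated and 9.98 ± 0.23 (SD, n = 2) at 10 h. Its log2 fold change was 2.39 ± 0.24 (SE; limma adjusted p = 0.0001). Among the other BCL2L11 probe sets, 1555372_at passed narrowly with 1.14 (limma adjusted p = 0.04998). The BCL2L11 probe set that did not pass, 1553088_a_at, was above background and had 0.14. TSC22D3, a direct target of the glucocorticoid receptor, rose by 4.30 at 10 h on its brightest probe set, 208763_s_at. Of its other probe sets, 207001_x_at had 1.37 (limma adjusted p = 0.04998) and 235364_at, below background, had −0.16. NR3C1, the gene of the receptor, passed at 10 h on 4 of 5 probe sets, with 1.49 on the brightest.

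**Figure D1:**
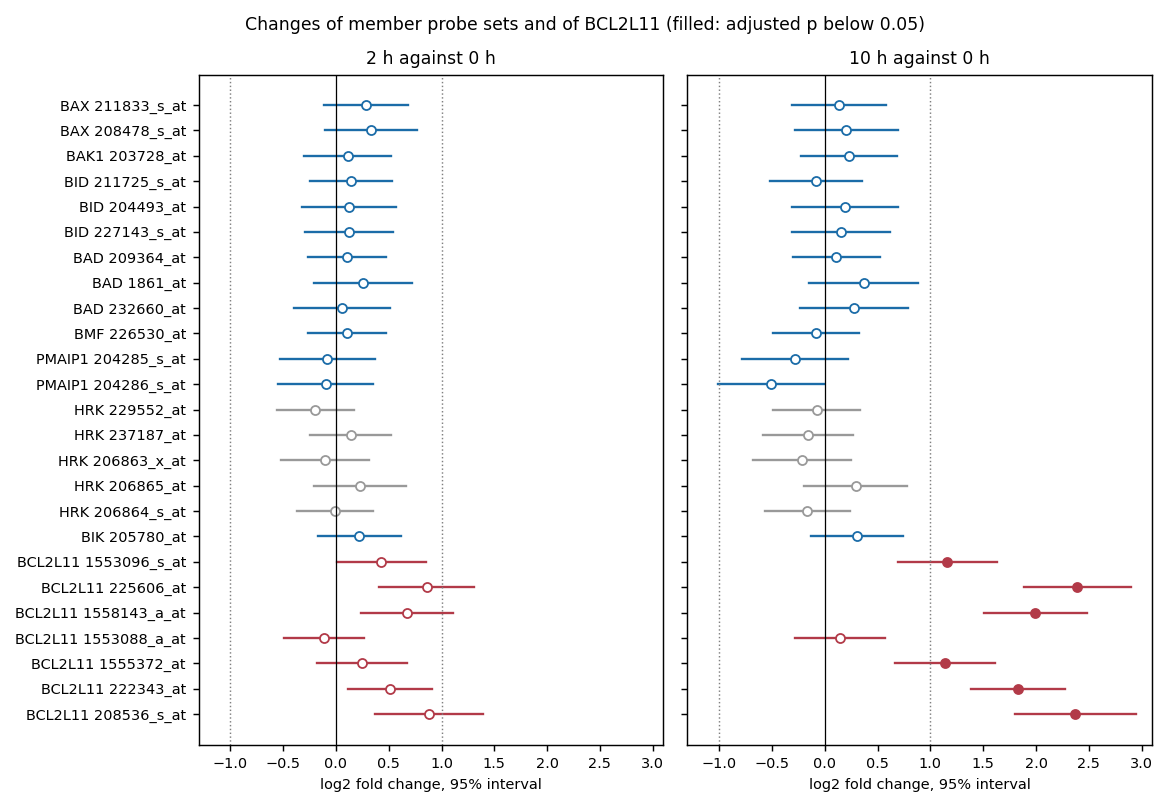
Log2 fold change of each member probe set and of the 7 BCL2L11 probe sets at 2 h (left) and 10 h (right) against 0 h, with 95% intervals from limma; filled points passed an adjusted p below 0.05, blue members were above background, grey ones were not, and red marks BCL2L11. Dotted lines mark a 2-fold change either way: 1 member interval reaches past them, that of PMAIP1 204286_s_at at 10 h, while 6 BCL2L11 probe sets are filled at 10 h.

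For the pore-forming genes the arrays of the times overlapped and no test passed. BAX was read by 2 probe sets. On 211833_s_at the 0 h arrays, replicates 1 to 3, gave 5.94, 6.11 and 5.86, the 2 h arrays 6.08, 6.36 and 6.33, and the 10 h arrays 5.85 and 6.35. The arrays of the 3 times overlapped, and the 2 arrays at 10 h covered most of the range of all 8. The log2 fold change was 0.29 ± 0.19 (SE) at 2 h and 0.13 ± 0.21 (SE) at 10 h, both at a limma adjusted p of 1.00. On 208478_s_at the values were 6.06, 5.72 and 5.70 at 0 h, 6.04, 6.32 and 6.13 at 2 h, and 5.69 and 6.38 at 10 h. At 2 h, 2 of these 3 arrays lay above every untreated array and replicate 1 did not, and the log2 fold change of 0.34 ± 0.20 (SE) was the highest of any member at 2 h, with a 95% interval from a 0.934-fold to a 1.71-fold level.

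BAK1 had a single probe set, 203728_at, at 7.64, 7.28 and 7.13 at 0 h, 7.50, 7.67 and 7.21 at 2 h, and 7.56 and 7.61 at 10 h. The untreated arrays alone spanned the 10 h values. The log2 fold change was 0.11 ± 0.19 (SE) at 2 h and 0.23 ± 0.21 (SE) at 10 h, and the interval at 10 h ran from 0.857-fold to 1.61-fold.

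BID, which caspase 8 cleaves to the active tBID that links death receptors to mitochondria, was read by 3 probe sets, all above background. On 211725_s_at the arrays gave 9.48, 9.62 and 9.38 at 0 h, 9.57, 9.41 and 9.93 at 2 h, and 9.34 and 9.48 at 10 h, with the highest value in 2 h replicate 3. The other two, 204493_at and 227143_s_at, had means of 8.94 and 8.32 at 0 h, 9.07 and 8.45 at 2 h, and 9.14 and 8.47 at 10 h. At 10 h the log2 fold changes of the 3 probe sets were −0.08 ± 0.21, 0.19 ± 0.24 and 0.15 ± 0.22 (SE), so they did not share a sign and each was smaller than its standard error. Of the genes that act on BID, CASP8 had log2 fold changes of 0.71 and 0.80 at 10 h on its 2 probe sets above background, which did not pass (limma adjusted p = 0.845 and 0.604).

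BAD, which binds BCL2 and BCL-XL and is held in the cytosol by YWHA adaptor proteins when phosphorylated, also had 3 probe sets. The brightest, 209364_at, gave 7.47, 7.53 and 7.40 at 0 h, 7.63, 7.70 and 7.40 at 2 h, and 7.44 and 7.71 at 10 h. These 8 values overlapped between the times, with a log2 fold change of 0.11 ± 0.17 (SE) at 2 h and 0.11 ± 0.19 (SE) at 10 h. The probe set 1861_at had the highest log2 fold change of any member at 10 h over all 8 arrays, 0.37 ± 0.24 (SE; limma adjusted p = 1.00), from 6.93, 7.36 and 6.50 at 0 h to 7.10 and 7.50 at 10 h. It was 0.15 without 0 h replicate 3, 0.17 without 10 h replicate 2, 0.58 without 0 h replicate 2 and 0.57 without 10 h replicate 1. The untreated arrays of this probe set spread more than those of any other member, with an SD of 0.43. The third, 232660_at, had a mean of 4.85, just above background, and 0.28 ± 0.24 (SE) at 10 h.

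BMF, which is tethered to the actin motor complex by DYNLL2 and binds anti-apoptotic proteins when released, had the single probe set 226530_at. It gave 5.35, 5.16 and 5.23 at 0 h, 5.30, 5.22 and 5.53 at 2 h, and 5.26 and 5.08 at 10 h. The level was low on every array, though above background, and the 3 times overlapped. The log2 fold change was 0.10 ± 0.17 (SE) at 2 h and −0.08 ± 0.19 (SE) at 10 h, and the interval at 10 h ran from 0.712-fold to 1.26-fold.

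PMAIP1 encodes NOXA, which binds mainly MCL1, and it had the lowest log2 fold changes of the members at 10 h. On 204286_s_at the arrays gave 9.37, 8.92 and 9.12 at 0 h, 9.30, 9.08 and 8.75 at 2 h, and 8.33 and 8.92 at 10 h. The second array at 10 h equalled the lowest untreated array to 2 decimals and the first lay below all others. The log2 fold change was −0.51 ± 0.24 (SE), with a 95% interval from 0.496-fold to 0.995-fold, an unadjusted p of 0.047 and a limma adjusted p of 1.00. It was −0.21 without 10 h replicate 1 and −0.81 without 10 h replicate 2. On 204285_s_at the values were 10.48, 10.24 and 10.45 at 0 h, 10.39, 10.50 and 10.04 at 2 h, and 9.73 and 10.48 at 10 h, so the difference of −0.28 ± 0.24 (SE) came from 10 h replicate 1.

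BIK encodes a BH3-only protein of the endoplasmic reticulum. Its probe set, 205780_at, gave 9.90, 10.02 and 9.69 at 0 h, 10.17, 10.29 and 9.83 at 2 h, and 10.13 and 10.23 at 10 h. Both arrays at 10 h lay above the 3 untreated ones, the only such case among members above background, whereas at 2 h the arrays overlapped. The log2 fold change at 10 h was 0.31 ± 0.20 (SE; limma adjusted p = 1.00), or 1.24-fold with an interval from 0.914-fold to 1.67-fold.

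HRK, a BH3-only gene best known from neurons, had 5 probe sets, all with a mean below 4.73, so none gave a level above the negative controls. The brightest, 229552_at, gave 4.73, 4.63 and 4.76 at 0 h, 4.36, 4.72 and 4.46 at 2 h, and 4.55 and 4.71 at 10 h. For 206863_x_at and 206864_s_at both arrays at 10 h lay below the untreated arrays, and for 206865_at above them, so probe sets of the same gene moved apart within the range of the controls. The suffix x marks a probe set that can also bind other transcripts. Together with BIK, 4 of 18 members had arrays that did not overlap between 10 h and 0 h, against 12.1% of all probe sets, and 0 did at 2 h, against 4.13%.

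**Figure D2:**
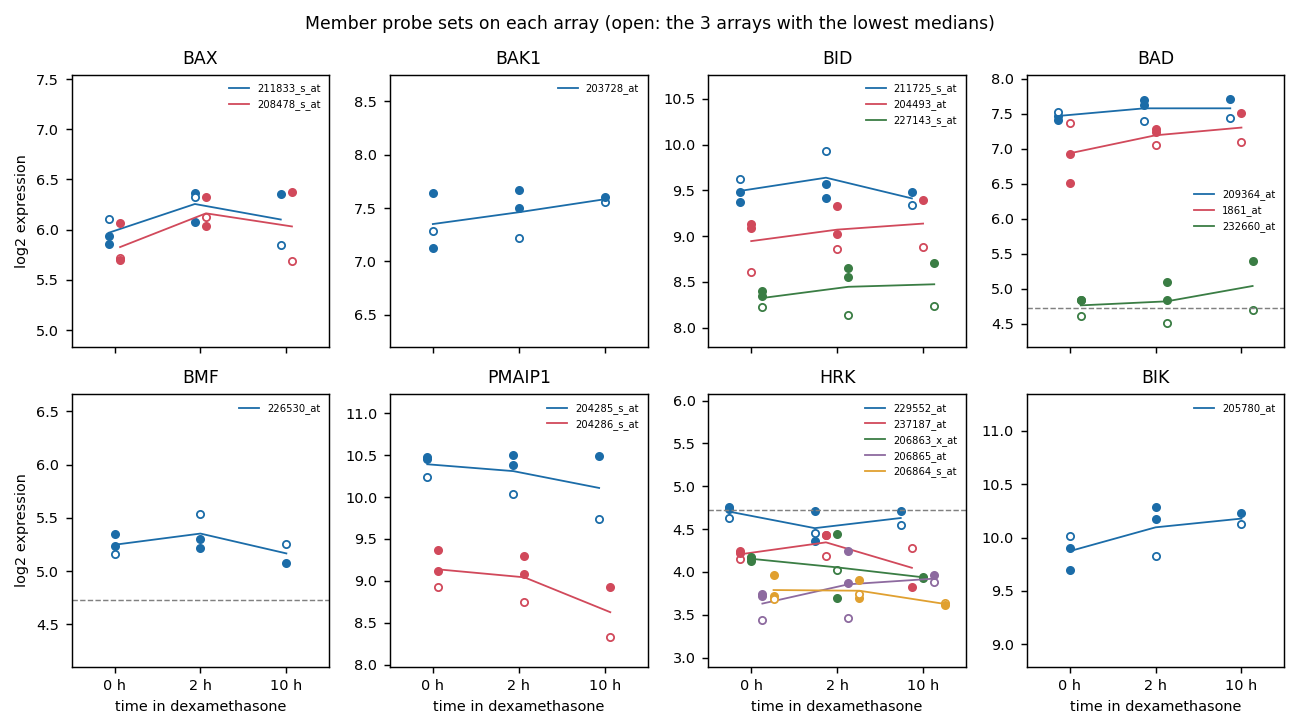
Log2 expression of each member probe set on each array at 0, 2 and 10 h, a panel per gene and a colour per probe set; lines join the means of a time, open circles are the 3 arrays with the lowest medians, and the dashed line is the highest negative control value of 4.73. The arrays of the 3 times overlap in most panels, both PMAIP1 probe sets have an open circle lowest at each time, and HRK sits around or below the dashed line.

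The values also varied between arrays of the same time. For 6 of the 18 members, among them both PMAIP1 probe sets and 2 of 3 for BID, the array with the low median was the lowest of its time at 0, 2 and 10 h, as it was for 36.9% of all probe sets. Within the 3 low-median arrays, 1 of each time, 10 h replicate 1 minus 0 h replicate 2 was −0.59 for PMAIP1 204286_s_at. Within the other 5 arrays, 10 h replicate 2 minus the mean of 0 h replicates 1 and 3 was −0.32. Each set thus held 1 array at 10 h, so these differences have no spread at that time. For the other PMAIP1 probe set the differences were −0.51 and 0.02. BAX gave −0.26 and 0.45 on 211833_s_at, and BAD 1861_at gave −0.27 and 0.79. BAK1, at 0.28 and 0.22, and BIK, at 0.11 and 0.43, were positive in both sets. Over all members the sign was the same in both sets for 10 of 18, and for 6 of the 13 above background. The share over all probe sets was not computed, so these counts cannot be set against the array. The part of array level in these differences was not tested beyond the fits with and without those arrays, in which no member passed.

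**Figure D3:**
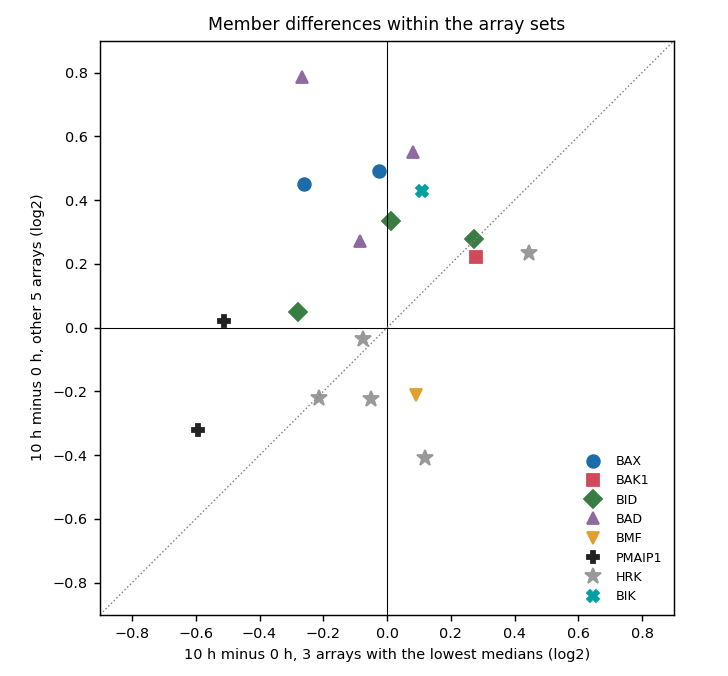
Difference between 10 h and 0 h in log2 expression for the 18 member probe sets, within the 3 arrays with the lowest medians (x axis) and within the other 5 arrays (y axis), a colour and marker per gene; the dotted line marks equal differences. Most BAX, BAD and BID points lie above the dotted line, PMAIP1 lies left of 0, and 10 of 18 points have the same sign on both axes. Each axis rests on 1 array at 10 h, and the 2 h arrays do not enter.

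By a fixed rule, the genes most like the members were sought for the member above background with the smallest F-test p, PMAIP1 204286_s_at. Of 23676 probe sets of other genes above background, the 3 with the highest Pearson correlation over the 8 arrays were those of LEPROTL1 (r = 0.988), CDC123 (r = 0.988) and CELF1 (r = 0.986). In the 5 arrays without the lowest medians these were 0.942, 0.975 and 0.936. All 8 points share the array level, and none of the 3 passed at 10 h, with log2 fold changes of −0.32, −0.30 and −0.25.

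Around the members, the pathway lists held 2 called genes, BCL2L11 and JUN. These lists were chosen with earlier results of these data known. Of 6 anti-apoptotic genes with 19 probe sets, none was called at either time. The median log2 fold change at 10 h was 0.03, against 0.12 for the members and −0.03 for all probe sets. Within the 3 low-median arrays the member median was −0.04, and within the other 5 it was 0.23. Both lists include probe sets below background: 12 of the 19 anti-apoptotic ones and 13 of the 18 members were above it. On its brightest probe set BCL2 had −0.42, MCL1 0.07 and BCL2L1, which encodes BCL-XL, −0.05. Probe sets of the same gene differed: BCL2 ran from −0.42 to 0.22, MCL1 from −0.19 to 0.53 and BCL2L1 from −0.09 to 0.28. The 0.22 of BCL2 and the −0.19 of MCL1 were on probe sets below background, 207004_at and 227175_at. Above background BCL2 ran from −0.42 to 0.03, and MCL1 was positive throughout, from 0.04 to 0.53. Of 8 further BCL2 family genes with 28 probe sets, only the 6 of BCL2L11 were called at 10 h, all higher, and the median was −0.00. Downstream of the pore, 8 genes with 23 probe sets, among them CYCS for cytochrome c, APAF1 and CASP9 of the apoptosome and DIABLO, gave 0 calls and a median of 0.01.

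Among 12 keepers and activators of the members with 29 probe sets, which include 7 YWHA-type adaptors with SFN, both dynein light chains, AKT1 and CASP8, 0 were called and the median was 0.04. Of 8 transcription factors known to act on member genes, with 19 probe sets, JUN was the only one called at 10 h, on 3 of its 4 probe sets, with log2 fold changes of 1.67, 1.76 and 2.33, and the median of the list was −0.06. MYC, which both drives growth and sensitises cells to apoptosis, had −1.01 ± 0.20 (SE), and both arrays at 10 h lay below every untreated array. It did not pass (limma adjusted p = 0.057), though it passed in 9 of 19 alternative fits, and its adjusted p over all 19 ranged from 0.0012 to 0.754. DDIT3, a stress factor that acts on several BH3-only genes, had −0.21, and FOXO3, known to act on BCL2L11 and BBC3, had 0.08, neither of which passed. At 2 h no probe set of any of these 5 lists was called.

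**Figure D4:**
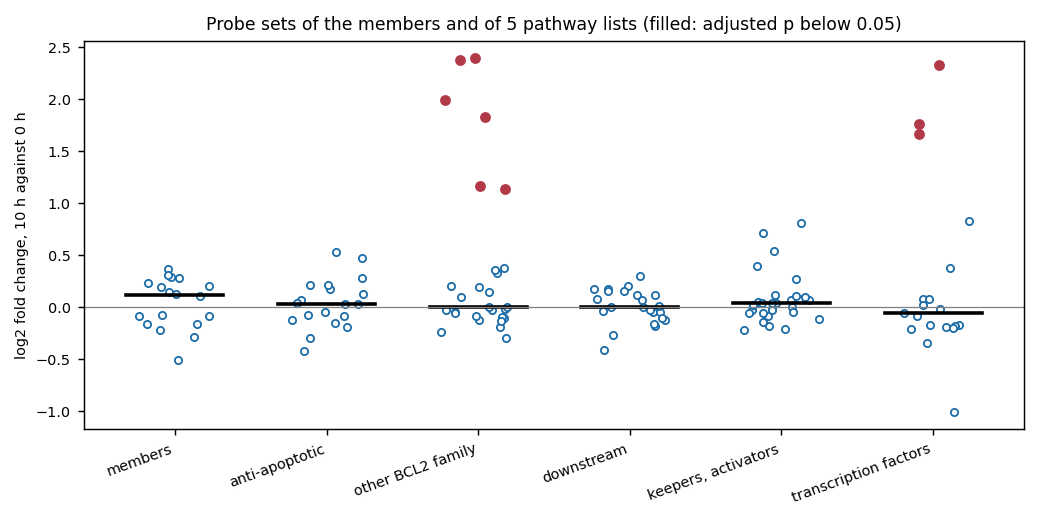
Log2 fold change at 10 h against 0 h for every probe set of the members and of the 5 pathway lists; bars are medians and filled points passed a limma adjusted p below 0.05. The members spread between −0.51 and 0.37, and the filled points are 6 probe sets of BCL2L11 and 3 of JUN.

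Since the hormone's receptor binds DNA, the start sites of the member genes were read for its motif in the RefSeq promoter windows of build GRCh38.p14, from 250 bases before to 50 bases after a gene's start. Of the 8 genes, 7 had windows, 13 in all, and BIK had none. The hexamer AGAACA was found on neither strand of the 13 windows, and 14.8% of all 35116 windows held it. The spaced core ACANNNTGT, which reads alike on both strands, lay in 1 of the 13, that of BAK1, and in 5.37% of all windows. The match, shown with 12 bases on each side and the core in capitals, begins 36 bases before the start, on the minus strand at chr6:33580292-33580324:
BAK1: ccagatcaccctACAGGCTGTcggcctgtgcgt
BAK1 did not pass at either time. These matches describe letters only, and sites farther from a start were not searched.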

How the data were processed

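Per the submitters' processing notes the authors made the deposited log2 values with RMA, which is known to correct background, normalize between arrays and summarise probes per probe set; its version and whether all arrays were processed together are not given in the sources used here. Probe sets were named from GEO's platform annotation: 41091 had 1 symbol and 1801 several. The 62 control probe sets were left out and all other 54613 entered 1 linear model over the 8 arrays, with time as the factor and moderated variances (limma 3.58.1, R 4.3.3; 5 residual degrees of freedom). Adjusted p-values are two-sided, over all probe sets. Dim probe sets were kept. The fit was tested on simulated data. No pair of arrays shared more than 0.269% of values. Alternatives were a gene-level fit, a filter, other scalings, variance models, array weights, a replicate block and each array left out; 2 further ones on array medians were added after seeing the data. All members were named whatever their result; from the lists, genes with a called probe set were named, and TSC22D3, NR3C1 and BCL2L11 as references. BCL2, MCL1, BCL2L1, CASP8, MYC, DDIT3 and FOXO3 were given outside this rule, after their values were seen. The members and lists were chosen with earlier results of these data known.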

Additional observations from a re-analysis of the deposited data

How the results depend on the processing

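The count of called members was 0 in all 3 comparisons under each of the 19 alternatives, 2 of them added after seeing the data. It was also 0 in the F test under each alternative that gave one. In the comparisons with 0 h, the lowest limma adjusted p of a member was 0.417, for PMAIP1 204286_s_at at 10 h with array weights. Over the array, the 5 probe sets called at 2 h became 1 with averaged probe sets, 10 under trended robust variances, 14 under array weights and 1 without the 3 arrays with the lowest medians. The 137 at 10 h became 70 genes on the brightest probe set, 72 with averaged ones, 215 with a block for those 3 arrays and 34 without them. They ranged from 70 to 147 when an array was left out, the lowest without either 10 h array. The 59 between 10 h and 2 h became 33 genes on the brightest probe set, 27 with averaged ones, 92 with trended robust variances, 92 with the block and 1 without the 3 arrays, and 14 to 70 with an array left out. The 105 of the F test became 56 and 55 in these gene-level fits and 12 without the 3 arrays, and 33 to 113 with an array left out. The causes were not tested. With the replicate block the counts were 6, 108 and 49 and no member was called. Same-numbered arrays did not deviate together (correlations from −0.28 to 0.28), so the numbers were not taken as pairs.

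Of 628 member values for 2 h or 10 h against 0 h under an alternative, 33 had the opposite sign, none beyond 0.138 in size. Where a gene had several probe sets, their average was set against the brightest one. At 2 h, BAK1 had −0.014 and BMF −0.017 with array weights, and BMF −0.027 without the 3 arrays. The average of the 5 HRK probe sets was 0.0125, against −0.19 on the brightest, 229552_at, in the main fit. HRK 206864_s_at had 0.0092, 0.025 and 0.055 under median centring, quantile normalization and array weights. At 10 h, the average of the 3 BID probe sets was 0.0865, against −0.08 on the brightest, 211725_s_at, in the main fit. Without the 3 low-median arrays, BID 211725_s_at had 0.0505 and PMAIP1 204285_s_at 0.0196. With an array left out, the 2 h ranges that crossed 0 were −0.0805 to 0.209 for BAD 232660_at, −0.0015 to 0.257 for BAK1, −0.0441 to 0.232 for BID 204493_at, −0.0011 to 0.257 for BID 211725_s_at, −0.295 to 0.0794 for HRK 206863_x_at, −0.0704 to 0.0774 for HRK 206864_s_at, −0.179 to 0.0546 for PMAIP1 204285_s_at and −0.222 to 0.0498 for PMAIP1 204286_s_at. At 10 h they were −0.0236 to 0.242 for BAD 209364_at, −0.0731 to 0.627 for BAD 232660_at, −0.138 to 0.548 for BAX 208478_s_at, −0.119 to 0.381 for BAX 211833_s_at, −0.0651 to 0.448 for BID 204493_at, −0.0840 to 0.384 for BID 227143_s_at, −0.171 to 0.0083 for BMF, −0.153 to 0.0029 for HRK 229552_at, −0.385 to 0.0697 for HRK 237187_at and −0.658 to 0.0930 for PMAIP1 204285_s_at. With signal near the negative controls, HRK and BAD 232660_at give the least certain values.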
